A study of Drosophila melanogaster with 2 samples.

Results

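Nucleoporins are the proteins that build the nuclear pore complex, the channel through which all regulated traffic crosses the nuclear envelope. The genes described here are those whose symbol in the deposited annotation starts with Nup followed by a number. There were 16 of them among 19391 loci in the expression table, and all 16 had at least 1 FPKM (fragments per kilobase of transcript, scaled to the sequenced total) in both libraries. No member was listed at 0 and none was lost to the filter on low values.

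The series compared adult Drosophila melanogaster females with males of the same inbred lines, those of the Drosophila Genetic Reference Panel (DGRP), which descend from a wild population. Whole bodies of flies 3 to 5 days old, kept at 25 °C on cornmeal-molasses-agar medium, gave total RNA, and 200 ng from each of 192 lines went into 1 pool per sex. Polyadenylated RNA of the female pool and of the male pool was sequenced as 1 library each, with paired reads of 100 nt on a shared lane. Below, values "in females" and "in males" are those of these libraries. Lines were mixed before sequencing, so neither library carries a spread between lines, and no difference below has a replicate check or a p-value. In whole bodies, fewer cells of a type and less RNA per cell cannot be told apart.

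The pore is built of stacked rings around a central channel. An outer ring on each face is made of the Y complex, an inner ring anchors the channel, and proteins rich in phenylalanine-glycine (FG) repeats fill the channel and bind cargo-carrying receptors. Further proteins hang as filaments on the cytoplasmic face or form a basket on the nuclear face. In the fly ovary, nurse cells and the oocyte stockpile pore proteins, and the oocyte stores preassembled pores in cytoplasmic membranes called annulate lamellae, for use in the rapid nuclear divisions of the early embryo.

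As deposited, the FPKM of all 16 nucleoporin genes were higher in females than in males, and 3 of them (Nup44A, Nup54 and Nup58) turned lower when ribosomal protein genes were made equal between the libraries, as did Nup58 with equal upper quartiles. By any size, 40.3% of the 14108 loci that reached 1 FPKM in 1 library or both were higher in females, and 54% of the 9805 loci that reached it in both. The levels of the 16 genes ran between 32.1 and 138 FPKM in females with a median of 44.1 FPKM, and between 4.08 and 29.1 FPKM in males with a median of 12.4 FPKM. As deposited the ranges did not overlap, since the lowest female value (Nup133, 32.1 FPKM) was above the highest male value (Nup58, 29.1 FPKM). This gap is narrow, and it closed under the scalings described below that divide the female values by 1.13, 1.19 and 1.91. Summed over the 16 genes, the level was 844 FPKM in females and 247 FPKM in males, a ratio of 3.42 as deposited. This ratio, too, changes with the scaling of the libraries.

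**Figure D1:**
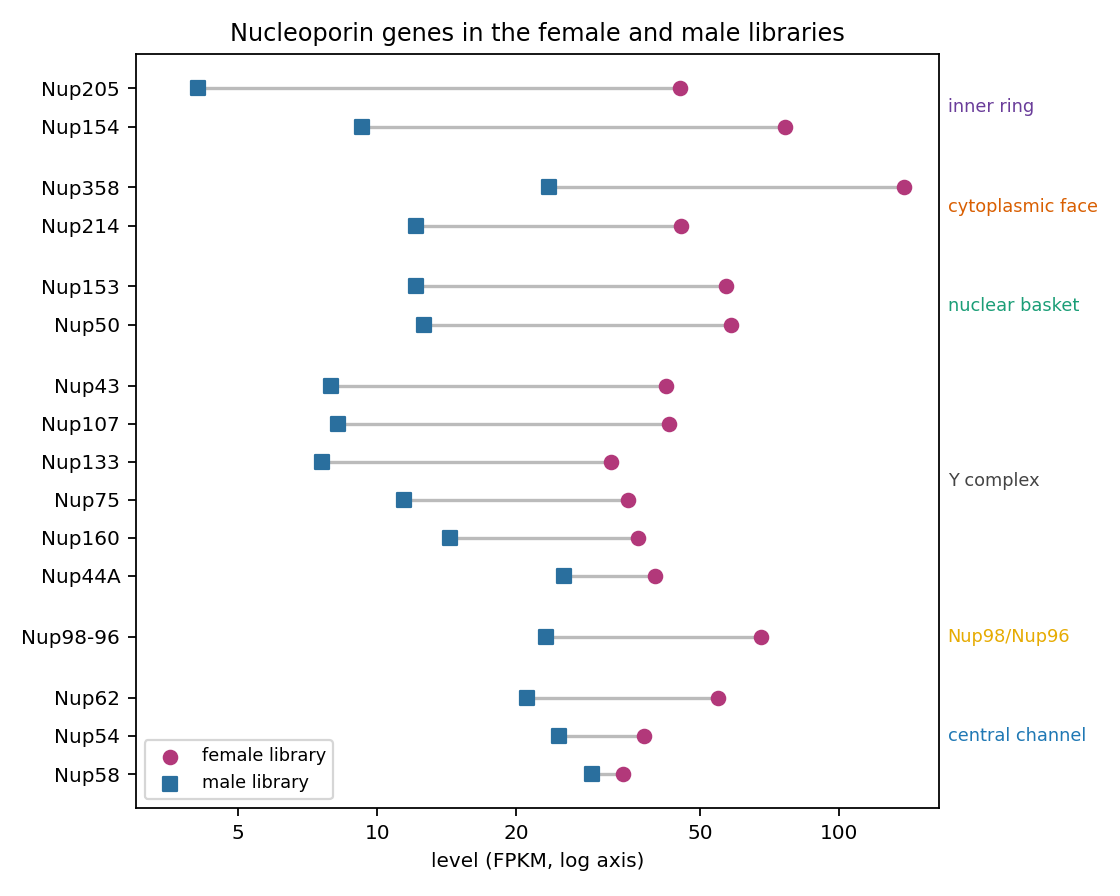
Level of each of the 16 nucleoporin genes in females (circles) and males (squares), in FPKM on a log axis, with genes grouped by their place in the pore. Each point is the value of 1 library, and as deposited every circle lies to the right of its square. The gap is widest for Nup205 (45.2 FPKM in females and 4.08 FPKM in males) and narrowest for Nup58 (34.0 FPKM in females and 29.1 FPKM in males), whose order, like that of Nup44A and Nup54, turns with ribosomal protein genes made equal.

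The difference between the libraries was expressed as log2((female FPKM + 1)/(male FPKM + 1)), called the log2 ratio from here on. A gene was counted as higher in a sex at 2-fold or more on this scale, which is a fixed rule of size and not a test. By this rule 13 of the 16 genes were higher in females and 0 in males. Among the 14108 loci tested, 21.5% passed in the female direction and 40.7% in the male direction. The median log2 ratio was 1.88 over the 16 genes and −0.58 over those loci. Because all members were detected in both libraries, the 9805 loci detected in both are the closer background: 28.1% of them were higher in females, 24.3% in males, and their median log2 ratio was 0.17. At 1.5-fold 15 of the 16 genes passed in the female direction, against 29.7% of the loci tested, and at 4-fold 7 of the 16 did, against 7.6%.

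**Figure D2:**
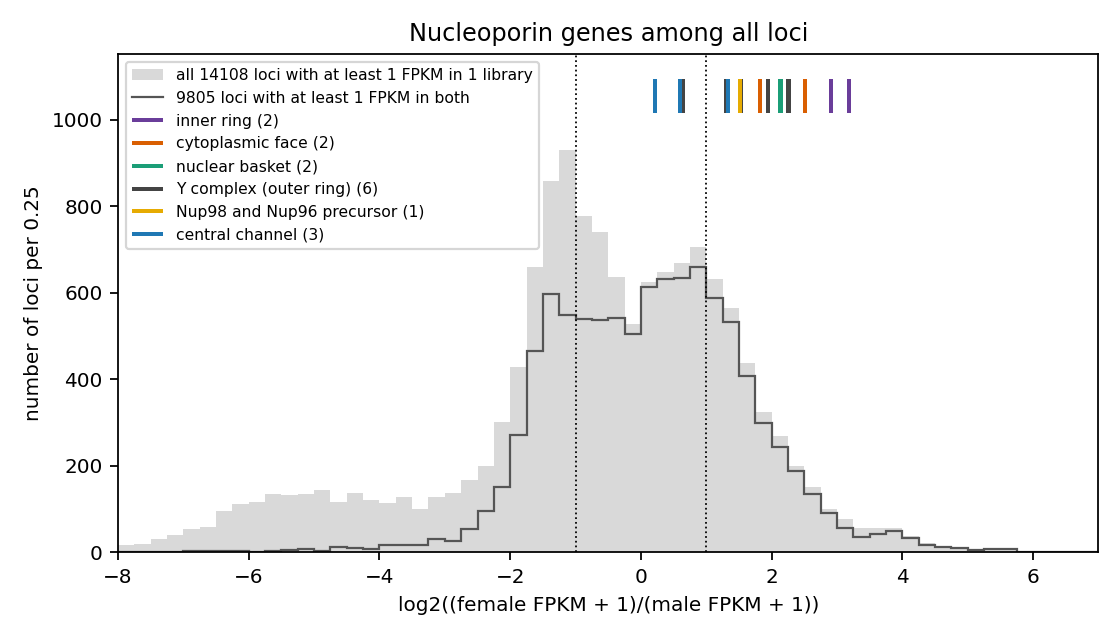
Histogram of the log2 ratio over all 14108 loci with at least 1 FPKM in 1 library (grey) and the 9805 loci that reached 1 FPKM in both (outline), as loci per bin, with a tick for each of the 16 nucleoporin genes coloured by its place in the pore. The horizontal axis is limited to the central part of the distribution, dotted lines mark 2-fold, and 13 ticks lie to the right of the right-hand line.

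Markers of the ovary and of yolk production were higher in females together with the nucleoporin genes, and markers of male reproductive tissues were not. All 8 female germline markers were higher in females as deposited, 7 of them at 2-fold or more. They summed to 6683 FPKM in females and 111 FPKM in males. Their log2 ratios lay between 0.38 (grk) and 6.27 (dhd). The order of grk (19.3 FPKM in females and 14.7 FPKM in males) turned with ribosomal protein genes made equal, which divides the female values by 1.91. The 5 yolk and eggshell genes were all at 2-fold or more, with a median log2 ratio of 4.24, and summed to 9909 FPKM in females and 486 FPKM in males. In males these 5 genes still had 41.1 FPKM (Vm26Aa) to 189 FPKM (Yp1), and dhd had 66.0 FPKM. The source of this RNA in the male library was not tested, nor was its part in the low male levels of nucleoporin genes. In the other direction, all 8 spermatocyte and spermatid markers and all 4 accessory gland markers were 2-fold or more higher in males. The first list summed to 17.2 FPKM in females and 3040 FPKM in males, the second to 2.31 FPKM in females and 4700 FPKM in males. Of the spermatocyte and spermatid markers, bol alone exceeded 2 FPKM in females, at 14.8 FPKM, and none of these lists had a gene listed at 0. No nucleoporin log2 ratio reached the median of the female germline markers, 5.20. The part of these tissues in the nucleoporin differences was not tested.

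The inner ring pair had the highest log2 ratios of the 16 genes. Nup205 encodes a large scaffold protein of the inner ring. It had 45.2 FPKM in females and 4.08 FPKM in males, a log2 ratio of 3.19, higher than at 97.9% of the loci tested. Its level in males was the lowest of all 16 genes, while in females it stood at place 8. Nup154, the fly counterpart of vertebrate Nup155, links the inner ring to its neighbours, and its mutants are known for sterility and defective gametes in both sexes. It had 76.3 FPKM in females and 9.25 FPKM in males (log2 ratio 2.91), and so held place 2 of the 16 genes in females and place 12 in males. Nup205 lies on the X (19746249 to 19753412, plus strand, in the deposited annotation, for which the submitters name build BDGP5) and has 2 transcript models of 10 and 11 exons. Nup154 lies on 2L (11004823 to 11009878, plus strand) and also has 2 models, of 12 and 13 exons, whose coding parts differ in length (4098 and 3372 nt).

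Of the cytoplasmic face, Nup358 was the most abundant nucleoporin transcript per length in females. Nup358 (RanBP2 in vertebrates) forms the cytoplasmic filaments, binds Ran, and in the fly oocyte takes part in building annulate lamellae. It had 138 FPKM in females and 23.6 FPKM in males, a log2 ratio of 2.51. This was 3.14 times the median of the 16 genes in females and 1.90 times that median in males, so the gene also stood high among the male values, at place 4. Nup214, an FG protein that works with the export receptor CRM1, had 45.4 FPKM in females and 12.1 FPKM in males (log2 ratio 1.82). Nup358 lies on 3R (21075070 to 21084394, plus strand) and has the longest exonic sequence of the group, 8553 nt, while Nup214 lies on 2R (18806459 to 18812255, minus strand) with a single model of 8 exons.

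The basket genes were close to each other in both libraries. Nup153 anchors the nuclear basket and, in fly cells, also binds large stretches of active chromatin. It had 56.9 FPKM in females and 12.1 FPKM in males, with a log2 ratio of 2.14. Nup50, a mobile partner of Nup153 that helps release imported cargo, had 58.3 FPKM in females and 12.6 FPKM in males, with a log2 ratio of 2.12. The pair held places 5 and 4 in females and places 10 and 8 in males. Nup153 is on the X (16493356 to 16504492, plus strand) with 7983 nt of exon, and Nup50 on 2R (4010541 to 4012563, plus strand) with 1907 nt.

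Among the 6 Y complex genes, 5 were at 2-fold or more and 1 was not. Nup107 and Nup133 form the stem of the Y; Nup160, Nup75 (Nup85 in vertebrates), Nup43 and Nup44A (Seh1) belong to its arms. Nup43 had 42.1 FPKM in females and 7.93 FPKM in males (log2 ratio 2.27). For Nup107 the values were 42.9 FPKM in females and 8.21 FPKM in males (log2 ratio 2.25). Nup133 was lower in both, with 32.1 FPKM in females and 7.61 FPKM in males (log2 ratio 1.94). These 3 genes occupied places 13 to 15 of the male order.

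The remaining arm genes had smaller differences. Nup75 had 34.9 FPKM in females and 11.4 FPKM in males, a log2 ratio of 1.53. Nup160, known also for an allele that causes lethality in hybrids between Drosophila species, had 36.8 FPKM in females and 14.4 FPKM in males, a log2 ratio of 1.30. Nup44A is shared between the pore and GATOR2, a complex that regulates the TORC1 kinase, and is required in the female germline for the oocyte to keep its fate. It had 40.0 FPKM in females and 25.4 FPKM in males, a log2 ratio of 0.64, which is under 2-fold and below 0 with ribosomal protein genes made equal. So the female levels of the 6 Y complex genes lay within 32.1 to 42.9 FPKM, a narrower range than the male levels, which ran from 7.61 to 25.4 FPKM with Nup44A at the top. On 2L lie Nup107 (10733293 to 10736077, minus strand) and Nup160 (11123779 to 11129335, plus strand, 14 exons), and on 2R lie Nup44A (3875967 to 3878788, plus strand) and Nup75 (14052199 to 14054645, minus strand). Nup43 (14192378 to 14193635, plus strand) and Nup133 (18516329 to 18520494, plus strand) lie on 3R.

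Nup98-96 encodes a precursor that cleaves itself into Nup98, a mobile FG protein that also binds active genes, and Nup96, a Y complex subunit. It had 67.8 FPKM in females and 23.2 FPKM in males, a log2 ratio of 1.51. On 3R (19599947 to 19607343, minus strand) the annotation holds 3 transcript models, 2 of 9 exons with 5883 nt of coding sequence and 1 of 4 exons with 3540 nt. Expression was deposited per gene, so the share of the short model in each sex is not analysed here.

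The central channel had the lowest median log2 ratio of the parts of the pore, 0.59, although Nup62 was above Nup160 and Nup44A of the Y complex. The ratios of Nup54 and Nup58, like that of Nup44A, fell below 0 with ribosomal protein genes made equal. Nup62, Nup54 and Nup58 form the FG trimer that lines the channel, and Nup54 and Nup58 are also known to be needed for transposon silencing by piRNAs in the somatic cells of the fly ovary. Nup62 had 54.6 FPKM in females and 21.1 FPKM in males (log2 ratio 1.33), and was the only one of the trimer at 2-fold or more. Nup54 had 37.9 FPKM in females and 24.8 FPKM in males (log2 ratio 0.59). Nup58 had 34.0 FPKM in females and 29.1 FPKM in males (log2 ratio 0.22), and was thus the highest of the 16 genes in males but at place 15 in females. The median of the trimer was 37.9 FPKM in females and 24.8 FPKM in males, while that of the inner ring pair was 60.8 FPKM in females and 6.67 FPKM in males. Nup62 is a single-exon gene on 2R (12231882 to 12233333, plus strand), Nup54 lies on 2R (8315954 to 8318604, minus strand) and Nup58 on 3R (15470748 to 15472628, plus strand).

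The order of the genes therefore differed between the libraries. Across the 16 genes, log2(FPKM + 1) of females and of males had a Spearman rho of 0.03 and a Pearson r of 0.18, given as a description over genes that share 1 library per axis. In the female library the highest level was 4.32 times the lowest, and in males 7.13 times. Relative to the median of the 16 genes, a measure that no scaling of a whole library can change, Nup58 stood at 0.772 in females and 2.35 in males. Nup54 and Nup44A behaved alike, at 0.860 and 0.908 in females and 2.0 and 2.05 in males. Nup205 went the opposite way, at 1.03 in females and 0.330 in males, as did Nup154, at 1.73 in females and 0.747 in males. Nup214 was near the median of both libraries, at 1.03 in females and 0.980 in males. The log2 ratio had a rho of −0.73 with the male level and 0.53 with the female level over the 16 genes, and since each level is a term of the ratio these values are partly fixed by construction.

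**Figure D3:**
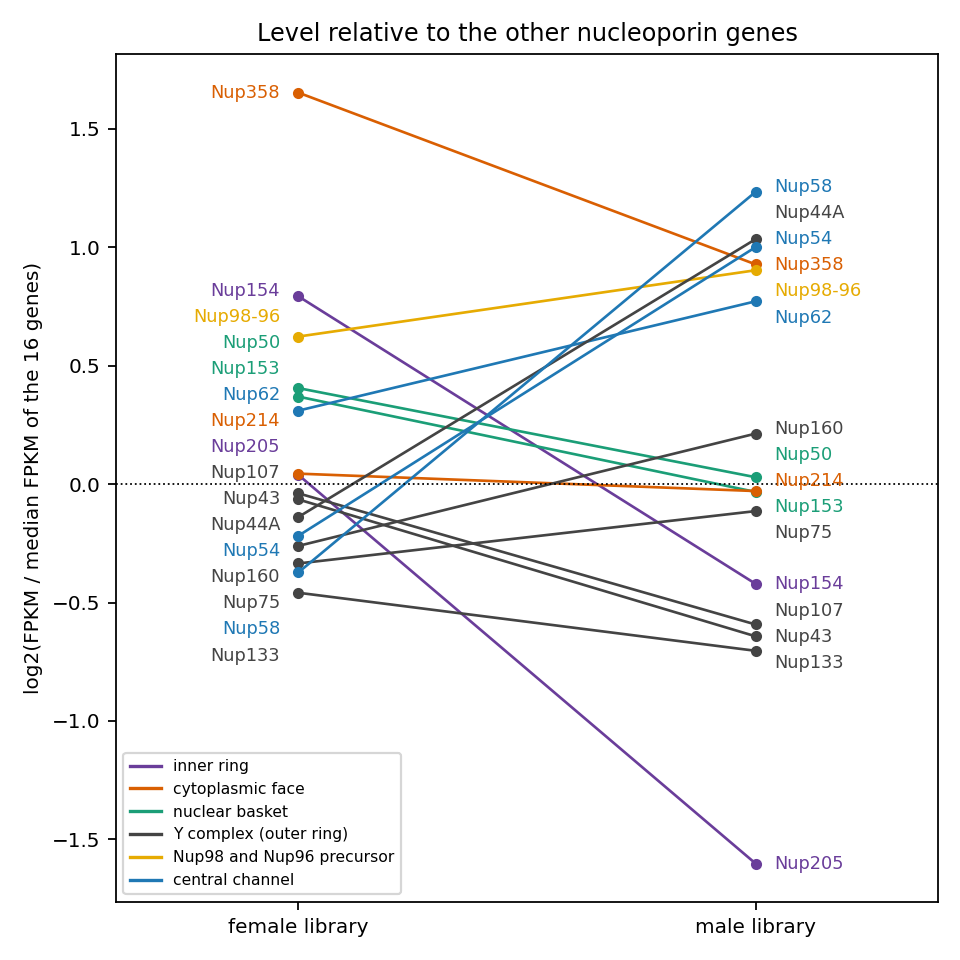
Level of each nucleoporin gene divided by the median of the 16 genes in the same library, as log2, for the female library (left) and the male library (right), with a line per gene coloured by its place in the pore. Labels are spaced apart for legibility, and the lines of Nup58, Nup54 and Nup44A lie below the median in females and at 2.0 times the median or more in males, while those of Nup205 and Nup154 lie above it in females and below it in males.

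Placing the genes among other loci gave a view that depends on the scaling of either library only through the cut at 1 FPKM. Among the 9805 loci detected in both, the 16 genes lay at percentiles 59.9 to 92.8 of level in females (median 70.7) and at percentiles 10.8 to 65.6 in males (median 39.0). The percentile was higher in females for 15 of the 16 genes. Nup58 was the exception, at 61.8 in females and 65.6 in males. This exception depends on the set of loci. Among all 19391 loci, with no cut, the percentile was higher in females for all 16 genes, with Nup58 at 80.7 in females and 76.7 in males. In that set 3085 loci were listed at 0 in females and 1229 in males.

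How the libraries are scaled changed the size of the differences and the sign of the smallest ones. The shift of the median log2 ratio over the 9805 loci detected in both was 0.48 with equal FPKM sums, −0.17 when that median was set to 0, −0.23 with equal upper quartiles and −0.85 with equal ribosomal protein genes. With ribosomal protein genes made equal, which divides the female values by 1.91, 8 of the 16 genes were still 2-fold or more higher in females and the median log2 ratio was 0.98. Under that scaling 8.63% of the loci tested passed in the female direction. Nup44A, Nup54 and Nup58 then had negative log2 ratios of −0.27, −0.31 and −0.68, and Nup58 was also just below 0 (−0.02) with upper quartiles made equal. The other 13 genes stayed higher in females under every scaling tried, and 0 genes reached 2-fold in the male direction under any of them. With each library set to the same FPKM sum, 15 of the 16 genes passed 2-fold, against 30.8% of the loci tested.

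**Figure D4:**
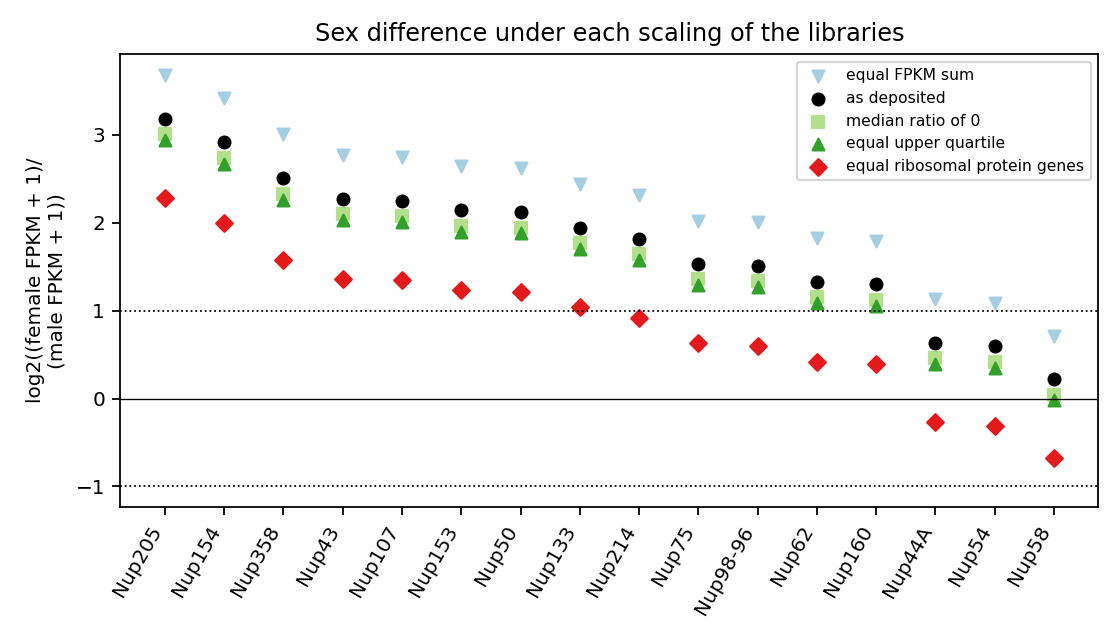
Log2 ratio of each nucleoporin gene on the values as deposited (black circles) and under 4 other scalings of the libraries, with dotted lines at 2-fold and a solid line at 0. Scaling on ribosomal protein genes gives the lowest values, from −0.68 for Nup58 to 2.28 for Nup205, and the order of the genes is the same under every scaling shown.

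A further 5 genes carry a Nup symbol in the supplied table of current names but a CG number in the deposited annotation, so the naming rule did not take them. As deposited all 5 were at 2-fold or more in the female direction, beside 21.5% of the loci tested and 28.1% of those detected in both. CG6540 (Nup35) had 43.2 FPKM in females and 5.34 FPKM in males, CG11092 (Nup93-1) had 69.0 FPKM in females and 10.1 FPKM in males, and CG8771 (Nup188) had 34.5 FPKM in females and 4.77 FPKM in males. These 3 encode inner ring proteins, and their log2 ratios of 2.80, 2.65 and 2.62 lay next to those of Nup205 and Nup154. Ratios near these were not confined to the inner ring, with 2.61 for the basket gene Mtor (described below) and 2.51 for Nup358 of the cytoplasmic face. CG7262 (Nup93-2), a second gene for a Nup93 protein and thus also one of the inner ring, was lower, with 24.2 FPKM in females and 7.59 FPKM in males (log2 ratio 1.55). Its difference fell under 2-fold with ribosomal protein genes made equal. Nup93-1 and Nup93-2 are related copies, and any fragments they share could have been divided between them. CG11875 (Nup37), a Y complex gene in vertebrates, had 28.2 FPKM in females and 4.22 FPKM in males (log2 ratio 2.48).

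The neighbourhood of the genes was mixed. Within 500 nt of the 16 genes lay 31 other loci, of which 30 had at least 1 FPKM in 1 library. Of these 30, 12 were 2-fold or more higher in females and 2 in males as deposited. Among all loci tested 21.5% and 40.7% were, and among loci detected in both 28.1% and 24.3%. The log2 ratio of 13 of the 30 had the opposite sign to that of their nucleoporin neighbour, so these were lower in females as deposited. Some of these ratios were close to 0, as at wfs1 near Nup133 (−0.0094). The signs given here, also those of the nearest loci below, are as deposited and were not followed under other scalings. By any size, 40.3% of the loci tested and 54% of those detected in both were higher in females. CG11875 ends 247 nt before Nup358 starts on the same strand, and the log2 ratios of this pair of pore genes were 2.48 and 2.51. Vha16-5, 241 nt from Nup107, was listed at 0 in females, against 8.58 FPKM in males. At 7 of the 16 genes the nearest locus had the opposite sign: coil at Nup50 (−0.29), cd at Nup133 (−0.83), CG30187 at Nup214 (−0.42), CG42518 at Nup75 (−0.12), CG10208 at Nup98-96 (−0.25), ACC at Nup44A (−0.92) and gl at Nup43 (−1.23). Also at Nup43, the gene WRNexo, 479 nt away, had 57.5 FPKM in females and 2.43 FPKM in males, while gl, 13 nt from its other end, had 1.09 FPKM in females and 3.90 FPKM in males.

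Exons of 5 of the 16 genes overlap exons of a gene on the opposite strand, and the use of strand in counting is not given in the sources used here. By the largest overlap of each gene, it covers 10.6% of the exonic length of Nup54 (with CG43204) and 8.56% of that of Nup160 (with RfC38, which had 39.4 FPKM in females and 3.60 FPKM in males). It covers 4.09% of Nup50 (with coil), 1.33% of Nup154 (with Art8) and 0.551% of Nup107 (with Dpy-30L1). Fragments of these stretches cannot be assigned to a strand with certainty. Over the other 11 genes the median log2 ratio was 1.82. Nup44A has a gap of 0 nt to the gene ACC on the other strand, whose values were 68.5 FPKM in females and 131 FPKM in males, but no exon of the pair overlaps in the annotation.

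In structure the genes ranged from 1 exon (Nup62) to 14 exons (Nup160). The annotation holds 1 transcript model for 10 of them, 2 for 3 and 3 for the other 3, and exonic length ran from 1193 nt (Nup43) to 8553 nt (Nup358) with a median of 3231.5 nt. All models equal a reference transcript: none of the 16 genes had a new isoform assembled from the reads, against 12.9% of the 15887 annotated genes. Exonic length and log2 ratio had a rho of 0.41 over the 16 genes, as a description. By arm, 6 genes lie on 2R, 5 on 3R, 3 on 2L and 2 on the X. The X-linked pair, Nup205 and Nup153, had a median log2 ratio of 2.66 and the 14 autosomal genes one of 1.68, beside −0.12 for all X-linked loci and −0.64 for all autosomal loci tested.

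Of 10 other pore components found, all were higher in females as deposited, with sec13 and CG14215 lower (−0.14 and −0.13) with ribosomal protein genes made equal. As deposited 7 were at 2-fold or more, with a median log2 ratio of 1.57, and under that scaling 3 were, with a median of 0.66. The list holds Torsin, an ATPase of the nuclear envelope that is not a structural part of the pore. Mtor, the fly Tpr protein of the basket, had 77.4 FPKM in females and 11.8 FPKM in males (log2 ratio 2.61), and gp210, a membrane anchor of the pore, had 65.4 FPKM in females and 11.4 FPKM in males (2.43). The smallest ratios were those of sec13, a subunit shared by the Y complex and the COPII vesicle coat (78.7 FPKM in females and 45.4 FPKM in males, 0.78), and CG14215 (Elys), which seeds pore assembly on chromatin (27.1 FPKM in females and 15.5 FPKM in males, 0.76). Across the 16 named genes, the 5 genes with CG numbers and these 10, all 31 were higher in females as deposited, and 26 when ribosomal protein genes were made equal. At 2-fold or more in the female direction there were 25 as deposited and 15 under that scaling. The share of all loci fell as well. Of the loci tested, 21.5% passed 2-fold in that direction as deposited and 8.63% under that scaling, and of those detected in both 28.1% and 10.5%. By any size, 40.3% of the loci tested were higher in females as deposited, and 3440 of the 14108 under that scaling.

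The Ran cycle supplies the direction of transport: Ran is loaded with GTP in the nucleus by its exchange factor and unloaded at the cytoplasmic face. Of 8 genes, 6 were at 2-fold or more in females and 2 in males as deposited, but 1 in females and 2 in males with ribosomal protein genes made equal, with a median log2 ratio of 1.5 as deposited and 0.58 after that scaling. In the female direction 21.5% of the loci tested passed as deposited and 8.63% after that scaling, and of loci detected in both 28.1% and 10.5%. In the male direction 40.7% and 54.6% of the loci tested passed. Bj1, the exchange factor, had 179 FPKM in females and 23.5 FPKM in males (log2 ratio 2.87), and ran had 559 FPKM in females and 151 FPKM in males (1.88). The related copies ran-like (0.0878 FPKM in females and 90.5 FPKM in males, log2 ratio −6.39) and Ntf-2r, a retroposed copy of Ntf-2 (0.163 FPKM in females and 16.6 FPKM in males, −3.92) went the other way. Such copies can share fragments with their parent genes, so values of the pairs are uncertain.

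Import receptors carry cargo inwards by touching FG repeats. Of 14, 7 were at 2-fold or more in females and 1 in males as deposited, with a median log2 ratio of 1.11, but 2 in females and 3 in males with ribosomal protein genes made equal (median 0.22). For these and the export receptors, the share of loci tested past 2-fold in the female direction was 21.5% as deposited and 8.63% after that scaling. In the male direction it was 40.7% and 54.6%. Fs(2)Ket, the fly importin beta, had 213 FPKM in females and 33.8 FPKM in males (2.62), and msk, an importin of MAP kinase, had 234 FPKM in females and 38.7 FPKM in males (2.56). At the other end, alphaKap4, an importin alpha gene, had 0.00998 FPKM in females and 30.2 FPKM in males (−4.95), and CG32165 (Apl) had 34.7 FPKM in females and 55.3 FPKM in males (−0.66). Of the 4 export receptors, 3 were at 2-fold or more in females and 0 in males as deposited (median log2 ratio 1.94), and 2 in females and 1 in males with ribosomal protein genes made equal (median 1.02). Cas, which returns importin alpha to the cytoplasm, had 140 FPKM in females and 17.9 FPKM in males (2.90). Ranbp21 and emb, the fly CRM1, had log2 ratios of 2.05 and 1.83, and Ranbp16 had 35.3 FPKM in females and 40.6 FPKM in males (−0.20).

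Of 19 mRNA export factors, 11 were at 2-fold or more in females and 4 in males as deposited (median log2 ratio 1.33), and 6 in females and 4 in males with ribosomal protein genes made equal (median 0.42). For this list and the next, the female direction held 21.5% of the loci tested as deposited and 8.63% after that scaling. The highest ratios were those of nxf2, which acts in piRNA-guided silencing in the ovary (28.8 FPKM in females and 2.80 FPKM in males, 2.97), and Nxt1, the partner of the export receptor (91.1 FPKM in females and 13.9 FPKM in males, 2.62). The lowest were those of xmas-1 (0.799 FPKM in females and 35.0 FPKM in males, −4.32) and e(y)2b, a copy of the gene for the e(y)2 export factor (0.612 FPKM in females and 30.1 FPKM in males, −4.27). For the nuclear lamina and envelope, 8 of 13 genes were at 2-fold or more in females and 2 in males as deposited (median log2 ratio 1.22), and 3 in females and 2 in males under the same scaling (median 0.29). Ote, a LEM-domain protein needed by germline stem cells, had 92.5 FPKM in females and 6.73 FPKM in males (3.60), and LBR, the lamin B receptor, had 35.8 FPKM in females and 5.70 FPKM in males (2.46). Msp-300, a giant nesprin of muscle nuclei, had 18.3 FPKM in females and 63.1 FPKM in males (−1.73), and spag4 was listed at 0 in females, against 3.78 FPKM in males. As deposited, genes 2-fold or more higher in males numbered 0 of the 16 nucleoporin genes, 0 of the 10 other pore components and 9 of the 58 genes of the transport and lamina lists (15.5%), all below the 40.7% of loci tested and the 24.3% of loci detected in both. With ribosomal protein genes made equal the counts were 0, 0 and 12, beside 54.6% of the loci tested. The difference between the lists was not tested.

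**Figure D5:**
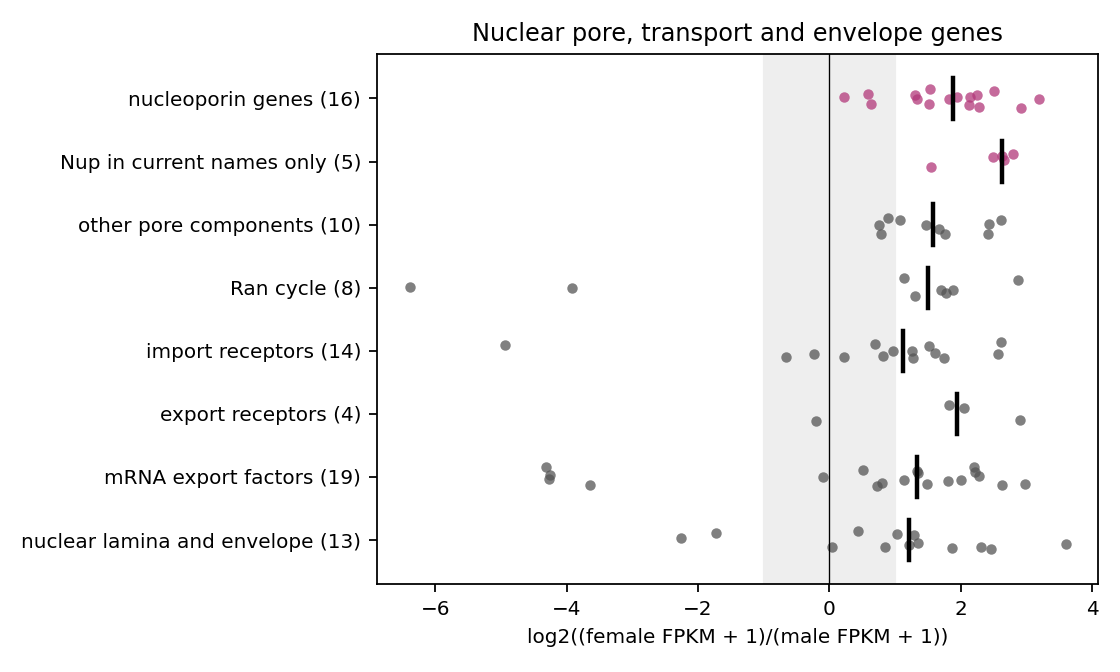
Log2 ratio of each gene in the nucleoporin group, the 5 genes named Nup only in the current table, and 6 lists of pore, transport and envelope genes, with the number of genes in brackets. Points are genes, black bars are medians and the grey band is less than 2-fold; as deposited the nucleoporin and pore rows lie wholly to the right of 0 (with ribosomal protein genes made equal, 5 of their 31 genes fall to its left), while 4 of the 5 other rows have genes beyond 2-fold on the left.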

How the data were processed

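The authors deposited 1 table of FPKM per gene with a column for each of 2 libraries, and 1 annotation of transcript models; the file's own name gives the unit. Per the submitters' processing notes, TopHat2 2.0.8, Cufflinks 2.0.2 and build BDGP5 were used; how strand and read filters were set is not given in the sources used here. Libraries were made with a TruSeq kit, per the labels' protocols. Positions are those of the deposited annotation, counted from 1 as in the deposited file; the supplied annotation is of another build (same start for 1 of 16 genes), and was used for no coordinate. All 16 symbols matched the supplied table of current names.

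FPKM values were used as deposited, with a pseudocount of 1 FPKM, a minimum of 1 FPKM in 1 library and a threshold of 2-fold, with pandas 2.3.3, scipy 1.17.1 and numpy 2.4.6 under Python 3.11.15, and matplotlib 3.10.9 for figures. The log2 scale with this pseudocount understates the change of low genes. With 1 library per sex no test was made. Columns summed to 669223 FPKM in the female library and 951735 FPKM in the male library. Low values were searched for a step of 1 fragment: 61.5% of 369 checked values in the female library and 35.4% of 65 in the male library lay within 0.15 of a whole multiple, against 30% by chance. The female share was thus above chance and the male share near it. Since the male check failed, counts were not taken for either library, and depth and counting error are not given. All members were named; from each list of pore, transport and lamina genes the 2 highest and 2 lowest ratios were named. Torsin and the markers grk, dhd, bol, Vm26Aa and Yp1 were named after their values were seen. Of loci within 500 nt, the nearest was named where its sign was opposite. The neighbours CG11875, Vha16-5, WRNexo and wfs1 were chosen after their values were seen. The members and lists were chosen with earlier results of these data known.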

Additional observations from a re-analysis of the deposited data

How the results depend on the processing

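The median log2 ratio of the 16 genes kept its direction under every alternative run, and fell under 2-fold, to 0.98, when the medians of ribosomal protein genes were made equal. This choice lowered the count of genes 2-fold higher in females to 8, against 13 on the values as deposited, and a 4-fold threshold lowered it to 7. The share of all loci tested that passed fell as well, from 21.5% as deposited to 8.63% with that choice and to 7.6% at 4-fold. With ribosomal protein genes made equal, Nup44A, Nup54 and Nup58 changed sign (−0.27, −0.31 and −0.68), as did Nup58 with upper quartiles set equal (−0.022). These shifts follow from how the scalings are built: they moved the median over loci detected in both libraries by −0.85 and −0.23. Pseudocounts of 0.1 and 5 FPKM and the filters on low values moved none of the 16 genes across 2-fold. After the data were seen, 2 alternatives were added: with the 5 CG-numbered genes the median was 2.12, with 18 of 21 genes at 2-fold, and without the 5 genes with overlapping exons it was 1.82, with 9 of 11. Both counts stand beside 21.5% of the loci tested. Means of log values left every level of a part of the pore within 1.5 times its median. Leaving out similar copies among the members was not run, for want of protein sequences. No paired analysis was possible because each sex has 1 library. Depth was not recovered for the male library, so counting error limits the low male values to an unknown extent.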
